A study of Mus musculus with 6 samples.

Results

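*Cd97* is an adhesion G-protein receptor gene whose transcript was more abundant in the duodenal epithelium of mice without *Esrra*, the gene of estrogen-related receptor α, a nuclear receptor that activates genes of mitochondrial metabolism. It was examined here together with *Cd55*, its ligand, and 8 related receptors (*Emr1*, *Emr4*, *Gpr56*, *Gpr116*, *Gpr128*, *Gpr126*, *Lphn1* and *Lphn2*, all under the older symbols of the expression table). All 10 genes were found among the 22611 genes of the table. *Cd97* was chosen by its measured FPKM in the 2 genotypes, because it was higher in the knockout, so its difference between them is described without a test. The other 9 genes were chosen for their relation to *Cd97*. RNA was sequenced from 3 WT mice and 3 littermates carrying the germline *Esrra-/-* allele, with 1 library per mouse. All 6 mice had eaten a high-fat diet for about 8 weeks. Their ages are not given in the sources used here. The germline allele removes the receptor from every tissue of the animal and not from the intestine alone. The epithelium was released from the duodenum with EDTA and mechanical force, and whether crypts and villi were kept together for RNA-seq is not given in the sources used here.

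Adhesion G-protein receptors carry a long extracellular part that binds proteins of other cells or of the matrix, joined to a membrane-spanning part that signals through G proteins. Most of them cut themselves at a site just outside the membrane, and the fragments stay bound to each other until a ligand or a pulling force parts them. CD97 is best known from leukocytes, where its epidermal growth factor-like domains bind CD55, a membrane protein that shields cells from complement. CD97 is also made by epithelial cells, including those of the intestine, and there it lies at contacts between cells.

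*Esrra*, the targeted gene, measured 49.4, 73.5 and 103.6 FPKM in WT replicates 1 to 3 and 10.4, 9.42 and 8.72 FPKM in *Esrra-/-* replicates 1 to 3. FPKM counts the fragments of a gene per kilobase of its transcript and per fixed number of mapped fragments, so levels can be compared between genes. FPKM values do not show how deeply a library was sequenced, and the SD over mice stands for the error of each value. Of the genes in the table, 10596 had a mean above 1 FPKM and were tested with limma, in which each gene borrows information on its variance from the other genes, on log2(FPKM + 0.1). A gene was called when its unadjusted p was under 0.05 and its log2 fold change, *Esrra-/-* over WT, lay beyond 0.58 in size. By this rule 1.35% of all genes tested were called higher, 3.28% were called lower and 4.63% were called in either direction. Fold changes on this scale understate the change of genes with low values. WT replicate 3 and *Esrra-/-* replicate 3 held at most a trace of Y-linked transcripts (0.0487 and 0.222 FPKM in sum). The other 4 libraries held 27.3 to 46.7 FPKM, so each genotype has 1 library nearly without such transcripts. The study states that mice of both sexes served in its *Esrra-/-* experiments.

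*Cd97* measured 7.86, 6.32 and 4.94 FPKM in the WT libraries and 24.5, 31.9 and 30.2 FPKM in the *Esrra-/-* libraries. Every *Esrra-/-* library lay above every WT library, and the lowest of them was above the highest WT value by more than the whole range of either genotype. With 3 mice in each genotype, the mean and SD were 6.37 ± 1.46 FPKM for WT and 28.9 ± 3.88 FPKM for *Esrra-/-*, a ratio of 4.53. On the log2 scale the difference was 2.18 (standard error 0.19). It was between 2.01 and 2.34 when each library was left out in turn, and 1.97 in the 4 libraries with Y-linked transcripts. Ranked by signed log2 fold change, highest first, *Cd97* stood 23rd among the genes tested. Ranked by mean FPKM among all genes of the table, it moved from place 6617 in WT to place 2677 in *Esrra-/-*.

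*Cd55* measured 18.8, 19.4 and 18.3 FPKM in WT and 19.9, 25.4 and 19.5 FPKM in *Esrra-/-*. The 3 *Esrra-/-* values all lay above the WT values, but replicates 1 and 3 did so by little and only replicate 2 stood clearly higher. The mean and SD of the 3 mice were 18.8 ± 0.543 FPKM for WT and 21.6 ± 3.29 FPKM for *Esrra-/-*, and the log2 fold change was 0.19 with a 95% interval from −0.13 to 0.51 (limma adjusted p = 0.647). The ligand was therefore not called, and without *Esrra-/-* replicate 2 its log2 fold change was 0.07. Set side by side, the FPKM of *Cd97* was 0.419, 0.326 and 0.27 times that of *Cd55* in the WT libraries and 1.23, 1.25 and 1.55 times in the *Esrra-/-* libraries. The receptor transcript was thus less abundant than that of its ligand in each WT library and more abundant in each *Esrra-/-* library.

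**Figure D1:**
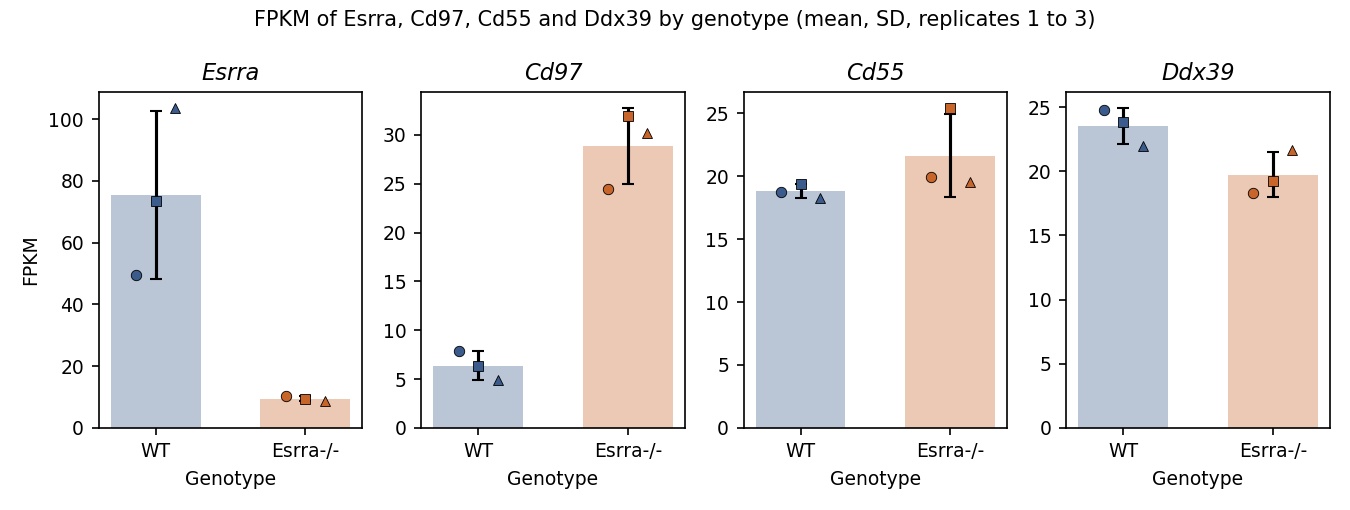
FPKM (y axis) of *Esrra*, *Cd97*, *Cd55* and *Ddx39*, the gene that overlaps *Cd97*, by genotype (x axis). Bars are means of 3 mice, error bars are SD and points are replicates 1 to 3 (circle, square, triangle). *Cd97* goes from 6.37 to 28.9 FPKM, while *Cd55* stays between 18.3 and 25.4 FPKM in all 6 libraries.

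In mm9, *Cd97* lies on the minus strand at chr8:86247150-86265225, with 8 annotated transcripts of which 4 are protein-coding. Its 3′ part overlaps *Ddx39*, which encodes an RNA helicase of mRNA splicing and export and lies on the plus strand. The genes share 3642 bases, and 895 of the 3757 exon bases of *Cd97* (23.8%) are also exon bases of *Ddx39*. The library kit does not mark strand, so fragments of the shared exons cannot be assigned to a gene by their direction. *Ddx39* measured 24.8, 23.8 and 22.0 FPKM in WT and 18.3, 19.2 and 21.7 FPKM in *Esrra-/-*. Its values lay below WT in every *Esrra-/-* library, with a log2 fold change of −0.25 (limma adjusted p = 0.509). The part of fragments from the shared exons in the *Cd97* values was not tested.

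The 10 tested genes on each side of *Cd97*, over 1092 kb of chromosome 8, were read from the same fit. Of these 20 genes, 0 were called by limma in either direction, and 2 had an unadjusted p under 0.05, as did 10.8% of all genes tested. Their log2 fold changes ran from −0.56 for *Asf1b*, a histone chaperone and the nearest tested gene beyond the start of *Cd97*, to 0.32 for *Zswim4*, a zinc finger gene, with a median of 0.10 where all genes tested had 0.03. The groups did not overlap for 3 of the 20, and all 3 (*Gipc1*, *Ddx39* and *Asf1b*) were below WT in *Esrra-/-*, as were 9.14% of all genes tested. *Lphn1*, another member, begins 159 kb beyond *Cd97* and was too low to be tested.

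**Figure D2:**
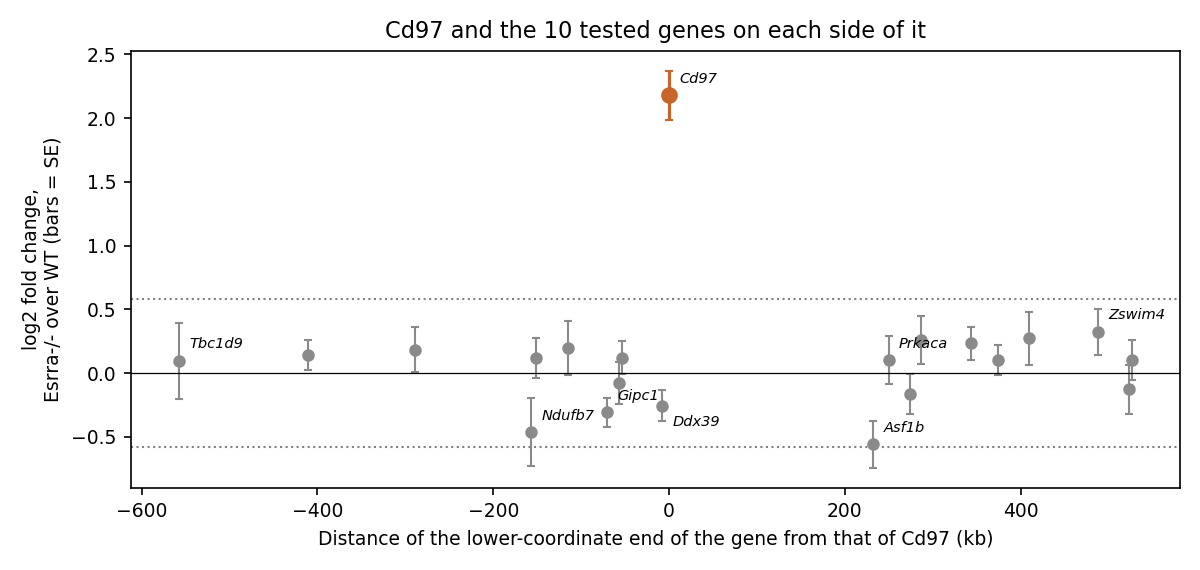
Log2 fold change, *Esrra-/-* over WT, with its standard error (y axis) against the distance in kb between the lower-coordinate end of each gene and that of *Cd97* (x axis), for *Cd97* and the 10 tested genes on each side. Dotted lines mark 0.58 and −0.58. *Cd97* lies at 2.18 and the other 20 genes lie between −0.56 and 0.32.

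*Gpr128* was the most abundant member in every library. It is a receptor of little-known function that is found mainly in the intestine. It measured 166.8, 168.3 and 142.0 FPKM in WT and 171.9, 187.6 and 178.6 FPKM in *Esrra-/-*. The groups did not overlap, but the gap between the highest WT and the lowest *Esrra-/-* value was small beside the range within WT. The log2 fold change was 0.18, with a 95% interval from −0.16 to 0.51 (limma adjusted p = 0.69), and the gene was not called. Without WT replicate 3 the log2 fold change was 0.10. Of the summed FPKM of the 30 adhesion receptors in the table, *Gpr128* made up 81.7% to 83.3% in the WT libraries and 75.3% to 75.8% in the *Esrra-/-* libraries. *Cd97* made up 2.88% to 3.85% of that sum in WT and 10.8% to 12.8% in *Esrra-/-*. Without *Gpr128*, the share of *Cd97* in the remaining receptors was 16.6% to 21.0% in WT and 44.5% to 52.2% in *Esrra-/-*. *Cd97* was picked for its rise and is part of these sums. The shifts in its share and in that of *Gpr128* follow from that choice and are no separate result.

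The sequences before the starts of *Cd55* and *Gpr128*, the members with the highest levels in WT, are shown because these are the genes that kept high levels in both genotypes. The set of RefSeq (GRCm38.p6) windows used here, from 250 bases before to 50 bases after the start, covered 8 of the 10 members. That set held no window for *Cd97* and *Emr1*, which does not mean that RefSeq lacks their starts. Each printed window was found at 1 place in mm9 by exact match, at chr1:132359272-132359571 for *Cd55* and at chr16:56795922-56796221 for *Gpr128*, both on the minus strand, and is written 5′ to 3′ of the gene. Capitals mark matches to the motifs named after the sequences.
Cd55: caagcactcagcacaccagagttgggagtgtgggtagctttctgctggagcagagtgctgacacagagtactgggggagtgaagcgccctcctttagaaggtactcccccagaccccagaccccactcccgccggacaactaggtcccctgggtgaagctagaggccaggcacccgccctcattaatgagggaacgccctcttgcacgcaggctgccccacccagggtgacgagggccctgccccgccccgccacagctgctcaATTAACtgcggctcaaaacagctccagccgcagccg
Gpr128: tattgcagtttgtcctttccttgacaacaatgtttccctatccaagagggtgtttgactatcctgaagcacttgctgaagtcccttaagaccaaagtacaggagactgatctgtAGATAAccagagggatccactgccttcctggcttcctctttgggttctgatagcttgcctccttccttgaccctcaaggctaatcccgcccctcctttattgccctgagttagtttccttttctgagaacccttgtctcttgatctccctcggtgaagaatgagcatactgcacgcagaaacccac

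The motifs were searched as exact letters on both strands. The core that ESRRA binds was written as AAGGTCA, and a longer form that contains it as TCAAGGTCA. Simple forms of the sites of other factors were GTTAAT for the intestinal factor HNF1, AGATAA for GATA factors, TTTATG for CDX factors and TATAAA for the TATA box. None of the last 4 is contained in another. Neither AAGGTCA nor TCAAGGTCA was found in the windows of the 8 members, and they occur in 4.72% and 0.423% of all 32851 windows in the table. The *Cd55* window holds GTTAAT on the opposite strand, beginning 15 bases into the transcript, a motif held by 7.1% of all windows. The *Gpr128* window holds AGATAA 136 bases before the start, a motif held by 11.2% of all windows. *Emr4* also had a match to AGATAA and *Lphn2* one to TATAAA. The bases of the *Cd55* window were 63.3% G or C and those of the *Gpr128* window 48.0%, against a median of 52.7% over all windows. A match of letters is not a measured binding site.

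*Gpr56*, a receptor for collagen III and transglutaminase 2 that is known from neural progenitors and cytotoxic lymphocytes, measured 6.4, 5.08 and 6.41 FPKM in WT and 6.01, 5.58 and 5.74 FPKM in *Esrra-/-*. The *Esrra-/-* values lay within the WT range. The log2 fold change was −0.04 with a 95% interval from −0.36 to 0.28 (limma adjusted p = 0.938), and its sign turned when WT replicate 1 or 3 was left out. *Lphn2*, a latrophilin that binds teneurins and FLRT proteins on neighbouring cells, measured 3.01, 1.89 and 2.2 FPKM in WT and 4.0, 3.67 and 1.4 FPKM in *Esrra-/-*. *Esrra-/-* replicates 1 and 2 lay above all WT libraries, and replicate 3 lay below them all. The log2 fold change was 0.23 with a 95% interval from −0.71 to 1.17 (limma adjusted p = 0.858). Without *Esrra-/-* replicate 3 it was 0.70 (limma adjusted p = 0.489), which meets the rule for a call, and without replicate 1 it was −0.03.

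The other 5 members averaged below 1 FPKM and were not tested in the main fit. *Lphn1*, the latrophilin best known from neurons, had 0.231, 0.339 and 0.278 FPKM in WT and 0.285, 0.502 and 0.318 FPKM in *Esrra-/-*. *Emr1*, which encodes a surface antigen by which mouse macrophages are recognised, had 0.134, 0.106 and 0.204 FPKM in WT and 0.149, 0.0328 and 0.0211 FPKM in *Esrra-/-*. *Gpr126*, known for its part in myelination by Schwann cells, and *Gpr116*, which limits surfactant in the lung, stayed between 0.0586 and 0.163 FPKM in all 6 libraries. *Emr4*, a receptor of myeloid cells, was listed at 0 in 3 of the 6 libraries and reached 0.0303 FPKM. The groups overlapped for all 5 of these genes. In a limma fit without the filter, in which 4.55% of 17679 genes were called, 0 of the 5 were called and 0 had an unadjusted p under 0.05.

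**Figure D3:**
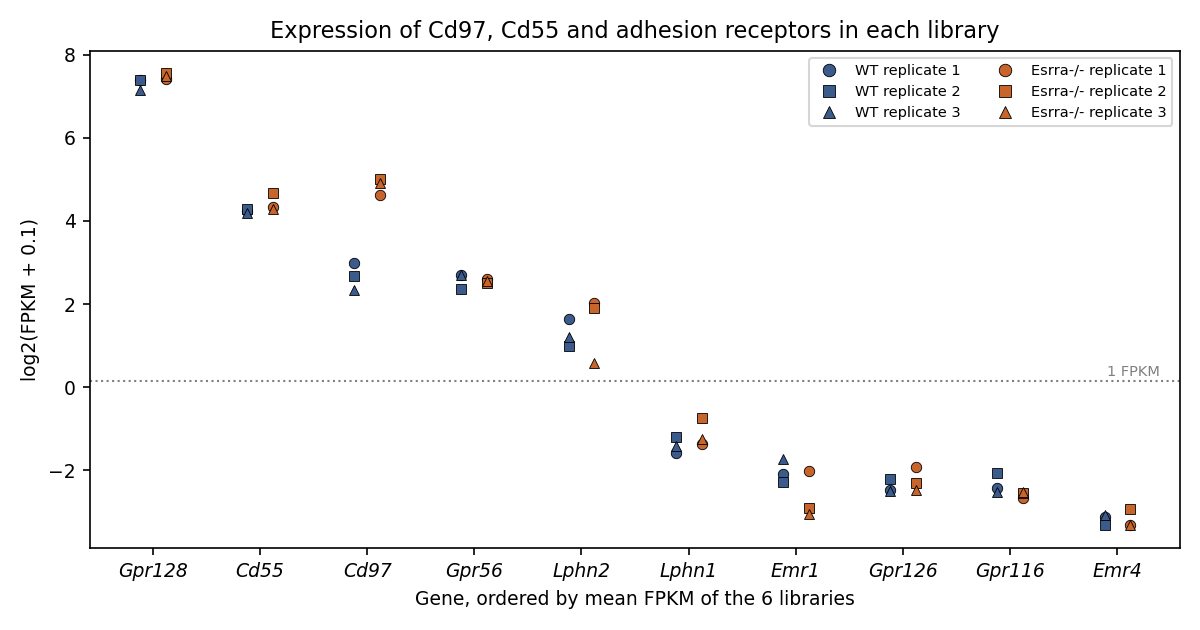
Log2(FPKM + 0.1) (y axis) of the 10 genes in each library, ordered by their mean FPKM (x axis), with WT in blue and *Esrra-/-* in orange and a symbol for each replicate number. The dotted line marks 1 FPKM, and 5 genes lie above it. *Cd97* moves from beside *Gpr56* in WT to beside *Cd55* in *Esrra-/-*.

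By mean FPKM the order in WT was *Gpr128*, *Cd55*, *Cd97*, *Gpr56*, *Lphn2*, *Lphn1*, *Emr1*, *Gpr116*, *Gpr126* and *Emr4*. In WT the libraries of *Cd97* and *Gpr56* overlapped, and so did those of *Emr1* and *Gpr116* and of *Gpr116* and *Gpr126*, while the other neighbours in the order did not. In *Esrra-/-* *Cd97* took the place after *Gpr128*, and its values overlapped with those of *Cd55*. Among the neighbours in the order of *Esrra-/-*, *Gpr116* and *Emr1*, and *Emr1* and *Emr4*, also overlapped. Of the 5 members tested, 1 was called higher, *Cd97*, and 0 were called lower, against 1.35% and 3.28% of all genes tested. The median log2 fold change of the 5 was 0.19. Since *Cd97* was picked for its rise, its call counts for nothing here. Of the other 4 members 0 were called, 0 had an unadjusted p under 0.05 with limma, and 0 reached an adjusted p under 0.05, which 0.0378% of all genes tested did. An unadjusted p under 0.05 was found for 10.8% of all genes tested. Apart from *Cd97*, whose separation follows from its choice, the *Esrra-/-* libraries lay above all WT libraries in 2 of the 4 other members tested (*Cd55* and *Gpr128*). The share of all genes tested with that order was 8.45%, and the share whose groups did not overlap in either direction was 17.6%.

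The other adhesion receptors were mostly scarce in these samples. Of the 21 further receptors of the family in the table, 3 were listed at 0 in all 6 libraries (*Bai3*, *Gpr111* and *Gpr123*) and few had a mean above 1 FPKM. Among these were *Gpr125*, a receptor tied to planar cell polarity, and *Gpr133*, which couples to the stimulatory G protein. *Gpr125* measured 7.81 to 9.43 FPKM in WT and 7.69 to 9.94 FPKM in *Esrra-/-*. *Gpr133* measured 4.34 to 7.54 FPKM in WT and 6.87 to 7.74 FPKM in *Esrra-/-*. The log2 fold changes were 0.05 for *Gpr125* and 0.32 for *Gpr133*, with limma adjusted p of 0.918 and 0.602, and neither was called. The groups overlapped for both, and the sign turned without *Esrra-/-* replicate 3 for *Gpr125*. For *Gpr133* the log2 fold change was 0.11 without WT replicate 3 and 0.50 without WT replicate 2. *Gpr112* and *Gpr97*, named after their values were seen, fell short of the filter. *Gpr112* had 0.434 to 0.937 FPKM in WT and 1.11 to 1.21 FPKM in *Esrra-/-*, and was not called without the filter (log2 fold change 0.64, limma adjusted p = 0.652). *Gpr97*, at most 0.0695 FPKM, lay below WT in every *Esrra-/-* library. Over all genes tested, 8.45% lay above WT in this way and 9.14% below.

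**Figure D4:**
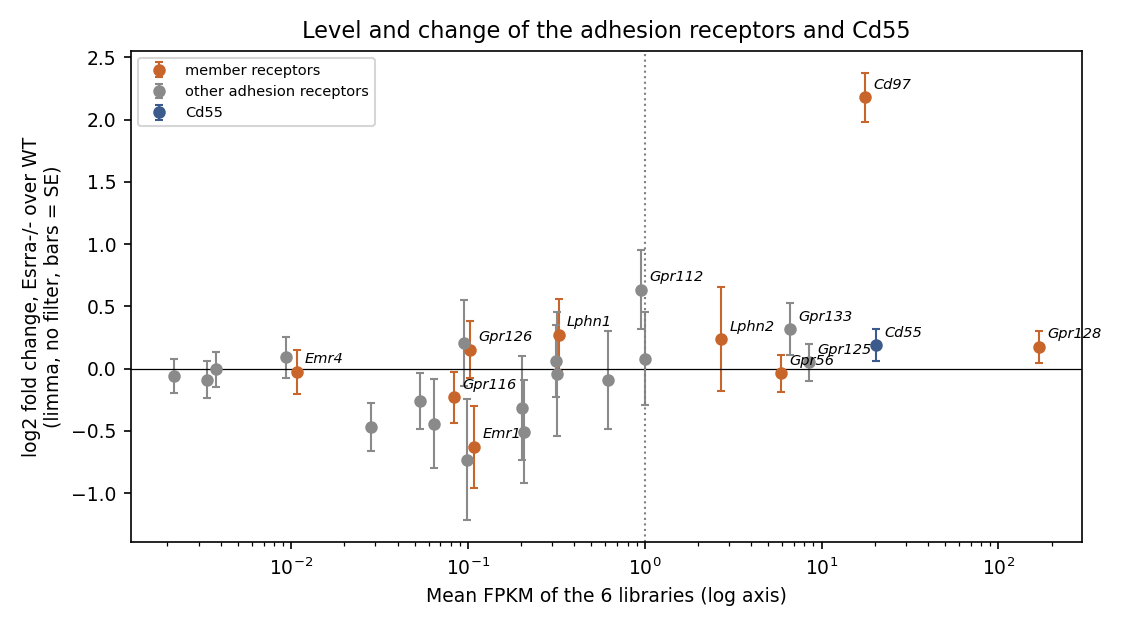
Log2 fold change, *Esrra-/-* over WT, with its standard error, from the limma fit without a filter (y axis) against mean FPKM of the 6 libraries on a log axis (x axis), for *Cd55* (blue), the receptors among the members (orange) and the other adhesion receptors with any value above 0 (grey). The dotted line marks 1 FPKM. *Cd97* lies at 2.18, and the other members above the line lie between −0.04 and 0.23.

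Proteins that bind the members were measured from a list of 23 genes, of which 7 were tested. Of the 7, 0 were called and 0 had an unadjusted p under 0.05 with limma, against 4.63% and 10.8% of all genes tested. Their median log2 fold change was 0.09, against 0.03 over all genes tested. The most abundant in WT were *Itgb1*, the beta 1 integrin chain that pairs with the alpha 5 chain as a partner of CD97, *Plxnb2*, a plexin that binds GPR56, and *Tgm2*, the transglutaminase that does so too. *Itgb1* measured 43.5 to 44.9 FPKM in WT and 43.8 to 52.8 FPKM in *Esrra-/-*. *Plxnb2* had a log2 fold change of 0.16 and *Tgm2* one of −0.29, with limma adjusted p of 0.744 and 0.619. *Itga5*, named after its values were seen, encodes the alpha 5 chain and fell short of the filter. It had 0.637, 0.472 and 0.177 FPKM in WT and 1.18, 1.71 and 1.15 FPKM in *Esrra-/-*. Its *Esrra-/-* libraries all lay above the WT libraries, an order that 8.45% of all genes tested had. In the fit without a filter its log2 fold change was 1.55 (limma adjusted p = 0.44), which that fit counts among its 4.55% of calls.

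CD55 acts beside other proteins that restrain complement, and a list of 26 such regulators and complement components was read from the table. Of these, 7 were tested. Of the 7, 0 were called and 0 had an unadjusted p under 0.05 with limma, where 4.63% and 10.8% of all genes tested did so. The median log2 fold change of the 7 was −0.23, against 0.03 over all genes tested. *Cd59b*, which blocks the membrane attack complex, had 45.6, 64.0 and 44.2 FPKM in WT and 33.9, 45.7 and 30.5 FPKM in *Esrra-/-*, with overlapping groups and a log2 fold change of −0.48 (limma adjusted p = 0.471). *Cr1l*, the rodent inhibitor Crry, had 34.8, 38.1 and 36.9 FPKM in WT and 29.0, 31.8 and 33.1 FPKM in *Esrra-/-*. Its *Esrra-/-* values were all below those of WT, an order that 9.14% of all genes tested had. The log2 fold change of *Cr1l* was −0.23 (limma adjusted p = 0.536). *Cfb*, a protease precursor of the alternative pathway, had a log2 fold change of 0.28 (limma adjusted p = 0.567). Without *Esrra-/-* replicate 2 the list held 2 called genes, *Cd59b* at −0.65 and *Clu*, the secreted complement inhibitor clusterin, at 1.47 (limma adjusted p = 0.322 and 0.333). Without WT replicate 3 it held 1, *Cfi*, and without *Esrra-/-* replicate 3 it held 1, *C2*, both lower in *Esrra-/-*.

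The 5 genes whose pattern was most like that of *Cd97* were found by the root mean square difference between profiles of log2(FPKM + 0.1), each centred on its own mean over the 6 libraries. They were *Fads6*, a desaturase-like gene, at 0.35, *Tnni1*, the slow skeletal troponin I, at 0.35, *Rsad2*, an interferon-induced antiviral gene, at 0.41, *Sardh*, the mitochondrial sarcosine dehydrogenase, at 0.43, and *Gsn*, the actin-severing protein gelsolin, at 0.46. Their log2 fold changes were 2.34, 1.64, 1.67, 1.74 and 1.59 in the same order. Since likeness to *Cd97* chose them, their difference between the genotypes is given with no test. *Fads6* averaged 0.506 FPKM in WT and 2.98 FPKM in *Esrra-/-*, and *Tnni1* averaged 0.644 and 2.20 FPKM. Both passed the filter only through *Esrra-/-*, where they were high. *Sardh* had 3.67 to 5.08 FPKM in WT and 11.6 to 19.4 FPKM in *Esrra-/-*, and *Gsn* had 8.82 to 15.9 and 28.0 to 47.7 FPKM.

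CD97 is made by leukocytes as well as by epithelium, so the levels of cell type markers are given beside its rise. In bulk samples, fewer cells of a type and less RNA per cell cannot be told apart. The 17 enterocyte and epithelial markers were all above 1 FPKM in mean, with 0 called, and summed to at least 43790 FPKM in every library. The summed FPKM of the 13 macrophage and monocyte markers was 35.8 to 48.6 in WT and 38.3 to 68.1 in *Esrra-/-*, with 0 called, and most of it was *Mertk* (63.5% of the sum). *Itgam*, the integrin chain CD11b of myeloid cells, had all *Esrra-/-* libraries above all WT libraries (3.24 to 4.74 FPKM in WT and 5.18 to 6.04 FPKM in *Esrra-/-*), with a log2 fold change of 0.42 (limma adjusted p = 0.458). It was named after its values were seen, as the 1 of the 7 tested markers of that list with an unadjusted p under 0.05, against 10.8% of all genes tested, and its order of groups was found in 8.45% of them. The median log2 fold change of the 7 was 0.07, and 4 of them were positive. *Emr1*, a defining gene of macrophages, stayed at or below 0.204 FPKM. The 15 markers of T cells and intraepithelial lymphocytes summed to 165.1 to 292.0 FPKM in WT and 128.9 to 331.2 FPKM in *Esrra-/-*, with 0 of 14 tested called.

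Markers of granulocytes and mast cells summed to 11.1 to 41.1 FPKM in WT and 5.66 to 6.32 FPKM in *Esrra-/-*. The mucosal mast cell proteases *Mcpt1* and *Mcpt2* were called lower in *Esrra-/-*, out of 4 markers tested, against 3.28% of all genes tested. Of the 4, 1 had a positive log2 fold change. *Mcpt1* made up 51.9% of the sum over the 6 libraries, and the difference in the sum came mostly from these 2 proteases. *Prg2* and *S100a8* were listed at 0 in every library. The log2 fold changes were −2.55 for *Mcpt1* and −2.83 for *Mcpt2* (limma adjusted p = 0.289 and 0.0918). *Mcpt1* ran from 3.75 to 26.4 FPKM in WT, and its log2 fold change was −1.91 without WT replicate 1 and −3.30 without WT replicate 3. *Mcpt2* averaged 6.57 FPKM in WT and 0.746 FPKM in *Esrra-/-*, so it passed the filter only through WT, where it was high. Endothelial markers summed to 2.62 to 5.10 FPKM in WT and 5.11 to 7.10 FPKM in *Esrra-/-*, and *Tek*, a receptor for angiopoietins, was called higher (log2 fold change 2.01, limma adjusted p = 0.397), though its groups overlapped and the call was lost without WT replicate 1 or 3 or *Esrra-/-* replicate 2 or 3 (log2 fold change 1.58 to 2.06 in those fits). The log2 fold change of *Tek* was 2.85 without WT replicate 2 and 0.87 with a pseudocount of 1. *Tek* averaged 0.503 FPKM in WT and 1.64 FPKM in *Esrra-/-*, so it passed the filter only through *Esrra-/-*, where it was high. The markers of B and plasma cells, dendritic cells and mesenchyme overlapped between the genotypes in their sums, with 0 called, and those of dendritic cells summed to at most 1.89 FPKM.

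All 9 crypt and stem cell markers and all 7 Paneth cell markers had a negative log2 fold change, with medians of −0.73 and −1.48, whereas 54.3% of all genes tested had a positive one. Over all genes tested, 3.28% were called lower. *Smoc2* and *Cdca7* of the crypt list were called lower at −0.84 and −0.73 (limma adjusted p = 0.247 and 0.326). The crypt sum was 250.8, 305.7 and 168.6 FPKM in WT and 146.3, 220.7 and 72.3 FPKM in *Esrra-/-*. The groups overlapped in that sum, as *Esrra-/-* replicate 2 lay above WT replicate 3. *Lyz1*, *Defa24* and *Ang4*, antimicrobial products of Paneth cells, were called lower at −1.50, −1.48 and −1.37 (limma adjusted p from 0.422 to 0.457), and all 3 calls were lost without WT replicate 1, WT replicate 2 or *Esrra-/-* replicate 3. The log2 fold changes in the same order were −1.60, −1.61 and −1.39 without WT replicate 1, −1.17, −1.16 and −1.08 without WT replicate 2, and −0.83, −0.87 and −0.70 without *Esrra-/-* replicate 3. The call of *Lyz1* was also lost without *Esrra-/-* replicate 1, at −1.70. All 3 calls were also lost with no filter, where the log2 fold changes stayed at −1.50, −1.48 and −1.37, and with quantile normalization, at −1.27, −1.26 and −1.26. That of *Ang4* was lost with no mean-variance trend, at −1.37. The Paneth sum was 11240, 23430 and 8961 FPKM in WT and 6438, 9627 and 1797 FPKM in *Esrra-/-*, so *Esrra-/-* replicate 2 lay above WT replicate 3. Goblet, enteroendocrine and tuft cell markers had 0 called. The part of these markers in the rise of *Cd97* was not tested.

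**Figure D5:**
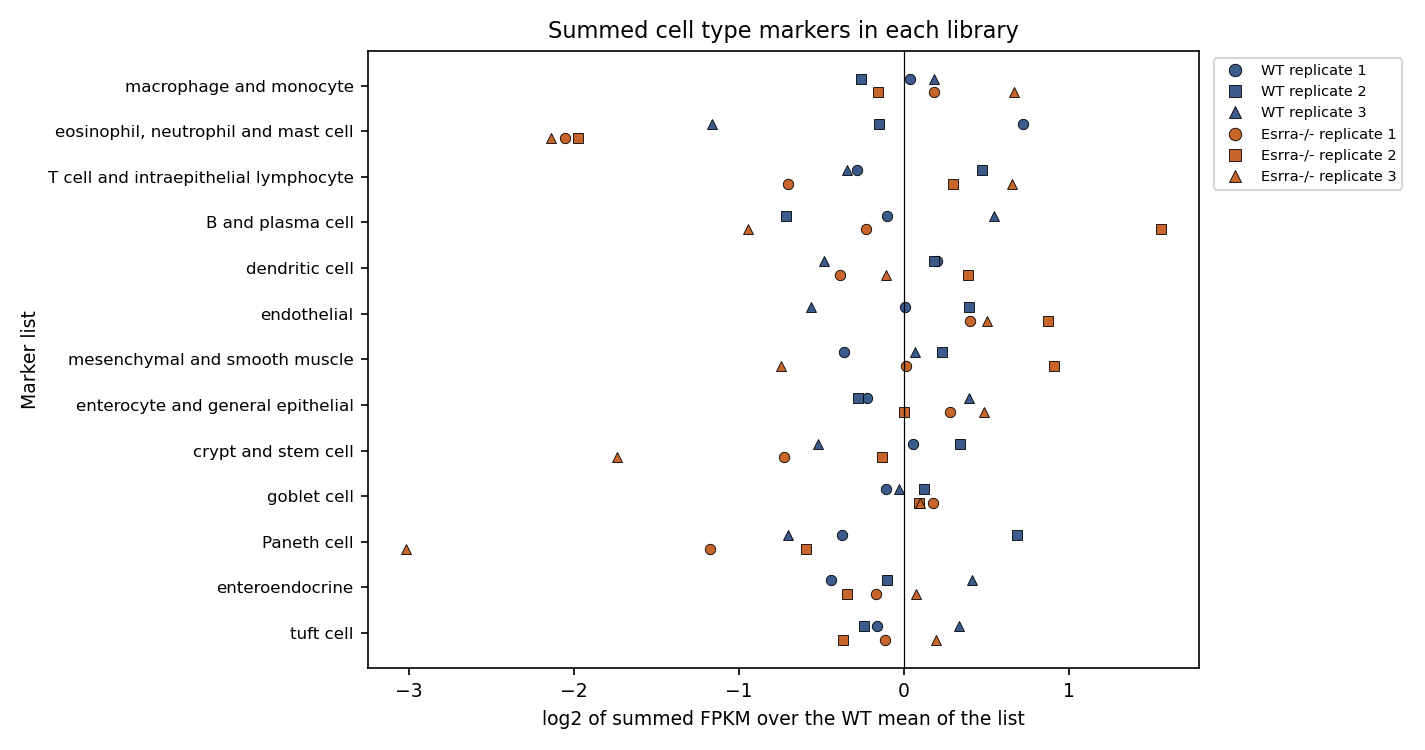
Log2 of the summed FPKM of each marker list over the WT mean of that list (x axis) in each library, by list (y axis), with WT in blue and *Esrra-/-* in orange and a symbol for each replicate number. The granulocyte and mast cell sums of the 3 *Esrra-/-* libraries lie below those of WT. The endothelial sums of *Esrra-/-* lie above those of WT, by very little where they are closest. The Paneth cell and crypt sums overlap, and T cell and macrophage sums are spread across both genotypes.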

How the data were processed

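Duodenal epithelium of 3 WT and 3 *Esrra-/-* mice was profiled by paired-end RNA-seq with a kit that does not mark strand. The authors deposited FPKM values per gene. The submitters' processing notes name FastQC 0.11.3, kallisto 2.1.0 and DESeq2 2.2.1, and the mm9 genome, and the annotation is not given in the sources used here. A second table holds the authors' own fold changes and p-values and was not used. Samples were grouped by their labels, and 0 columns belonged to other samples. Genes with a mean above 1 FPKM were fitted with limma 3.58.1 in R 4.3.3 (lmFit, eBayes with trend) on log2(FPKM + 0.1), two-sided, and p-values were adjusted by the Benjamini-Hochberg method across every tested gene. The thresholds for calls were p of 0.05 and log2 fold change of 0.58. The fit was tested on simulated data. FPKM gives no read depth, and the columns summed to 707100 to 999900 FPKM. The members and gene lists were chosen with earlier results of these data known. Genes named by rule were *Esrra*, the members, other adhesion receptors with a mean above 1 FPKM, the called genes and the 3 most abundant genes in WT of each other list, the genes beside *Cd97*, the 5 genes most like it, and called or wholly absent markers. Any other gene was named after its values were seen. Some genes and lists within this rule are not reported here. Positions come from the mm9 annotation GENCODE M1. Alternatives changed the pseudocount, filter, scaling, trend, covariates or libraries. Nothing in the labels ties the libraries to separate cultures or litters, and p-values measure the spread between mice.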

Additional observations from a re-analysis of the deposited data

How the results depend on the processing

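The log2 fold change of *Cd97* was 1.97 to 2.34 over 15 alternatives and 2.01 to 2.34 when each library was left out. The 348 genes called lower and 143 called higher became 528 and 277 with no filter, and 2 and 2 at an adjusted p under 0.05. They ranged from 252 to 533 and from 146 to 215 with a library left out, the highest counts being those without *Esrra-/-* replicate 2 and without WT replicate 3. Called members numbered 1 to 2 with a library left out, the second being *Lphn2* without *Esrra-/-* replicate 3. Called binding partners, 0 in the fit reported, were 2 with no filter (*Itga5* and *Col4a1*) and 0 to 1 with a library left out. Called complement genes were 1 with no filter and 0 to 2 with a library left out. In the 4 libraries with Y-linked transcripts, a comparison chosen after seeing the data, 2 complement genes (*Cfi* and *C2*) were called. The sign turned for *Gpr56* (0.016 without WT replicate 1, 0.017 without WT replicate 3, 0.021 in the 4 libraries), for *Lphn2* (−0.028 without *Esrra-/-* replicate 1) and for *Gpr125* (−0.048 without *Esrra-/-* replicate 3, −0.089 in the 4 libraries). With a library left out, the highest or lowest values on the other side of 0 were −0.15 for *Gpr56*, 0.70 for *Lphn2* and 0.14 for *Gpr125*. The cause was not tested. Over 17 genes and 253 alternatives, 224 kept direction and side of the threshold, 22 lost the call, 1 gained it and 6 turned sign.

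The replicate numbers are shared by the genotypes, but the deviations of same-numbered libraries correlated at 0.012, 0.263 and 0.376, and WT replicate 1 correlated best with *Esrra-/-* replicate 2 (0.182), so the numbers were not taken to pair the mice. With the replicate block, 441 genes were called lower and 192 higher, *Cd97* stood at 2.18, and no call changed among the 17 genes recomputed. With 3 mice per genotype and no read counts, the precision of low values such as those of *Emr1* and *Emr4* cannot be given.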
